A study of Homo sapiens with 2 samples.

Results

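Isolated LSD2 peaks were autosomal intervals of the LSD2 ChIP-seq list with more than 20000 bp to both the previous and the next interval. Of 360454 autosomal intervals, 4191 met this rule, and the whole list held 370863 distinct intervals. The members were chosen by the measured peak positions themselves. Their spacing, and every other value taken from this list, is therefore given as a description with no test. The data came from HepG2 cells, a human liver tumour line, grown without further treatment in medium with 25 mM glucose and 10% serum. The LSD2 ChIP group had 1 library, made with a rabbit antibody raised against residues 26 to 822 of LSD2, and the input group had 1 library of chromatin DNA made without antibody. With 1 library in each, no value has a replicate error, and the depth of both libraries is unknown here. HepG2 is aneuploid, and neither DNA copy number nor mappability was analysed here.

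LSD2, the product of KDM1B, is a flavin-dependent demethylase that removes methyl groups from lysine residues of histone H3. It has been found along the bodies of transcribed genes, together with histone methyltransferases, and in mouse oocytes it is needed to set up DNA methylation at some imprinted genes. In liver cells it has been studied as a repressor of lipid uptake and metabolism. A peak is a stretch in which ChIP reads exceeded input reads by the caller's cutoff. An isolated peak is therefore one that lies alone in a stretch of sequence without any other call.

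Isolated peaks were a small share of the list but were more than random placement gave. They made up 1.16% of the autosomal peaks (95% Wilson interval 1.13% to 1.20%) and 1.03% of the autosomal bases covered by peaks. Autosomes had 134 peaks per Mb over 2694 Mb of searched sequence. Peaks placed uniformly at the density of each chromosome would give 1749 isolated ones, so the observed number was 2.40 times that. Placement at the density of each 5 Mb window would give 2515, and placement at the density of each 1 Mb window would give 3107. The observed number was 1.67 and 1.35 times these. The ratio was thus closer to 1 with 1 Mb windows than with 5 Mb windows, without reaching it. The placed number of a window uses the count of the same peaks, so this approach is in part built into the method.

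**Figure D1:**
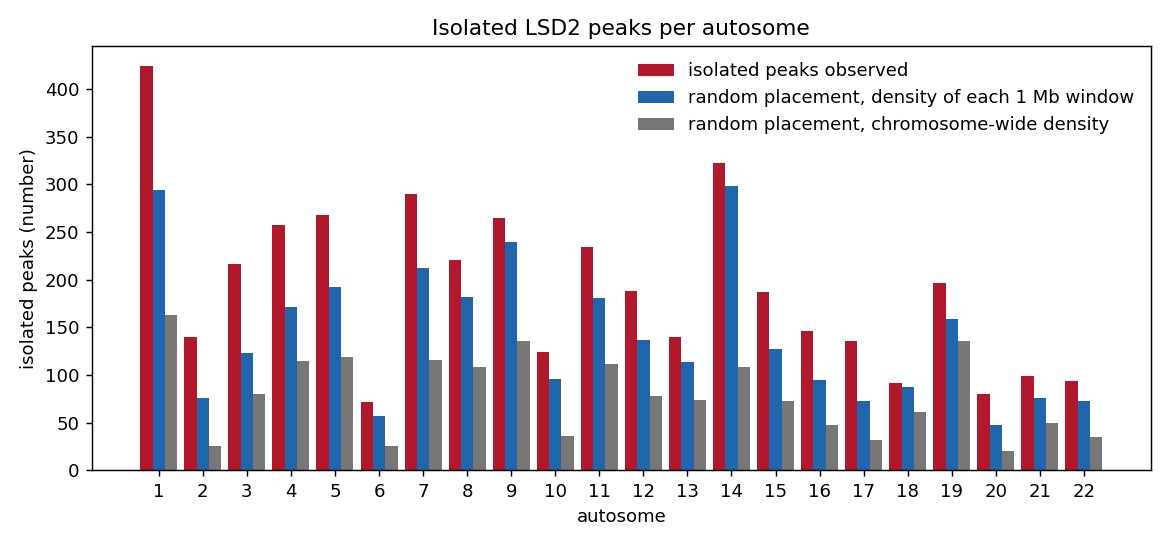
Number of isolated LSD2 peaks on each autosome as observed (red), under random placement at the density of each 1 Mb window (blue) and under random placement at the density of the whole chromosome (grey). The observed bar is the tallest on each of the 22 autosomes, from 72 on chromosome 6 to 424 on chromosome 1.

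By number, chromosome 1 had the most isolated peaks, at 424, followed by chromosome 14 with 322 and chromosome 7 with 290. Chromosome 6 had the fewest, at 72, and chromosome 20 had 80. The order was different once chromosome length was taken into account. Chromosome 14 then led with 36.5 isolated peaks per 10 Mb and chromosome 19 followed with 35.1. Chromosomes 21 and 22 had 27.8 and 26.7 per 10 Mb. Chromosomes 6 and 2, which have the most peaks per Mb, had the fewest isolated ones, at 4.29 and 5.86 per 10 Mb. As a share of its peaks, chromosome 19 had 3.99% isolated, chromosome 14 had 3.34% and chromosome 6 had 0.255%. Over the 22 autosomes, isolated peaks per Mb ran against peaks per Mb (Spearman's rho = -0.86), and both measures come from the same intervals.

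Set against random placement at the density of the chromosome, the order of the autosomes changed. Each of the 22 had more isolated peaks than placed, with ratios from 1.45 to 5.40 and a median of 2.55. Chromosome 2 had the highest ratio, with 140 isolated peaks observed and 25.9 under placement. Chromosome 17 had 136 observed and 31.8 placed, a ratio of 4.27. Both ratios stand on small placed numbers, as do the next ones. Chromosome 20 had 80 observed and 20.6 placed, a ratio of 3.88, and chromosome 10 had 124 observed and 36.4 placed, a ratio of 3.41. The lowest ratios were on chromosome 19, with 196 observed and 135.5 placed, and on chromosome 18, with 92 observed and 61.0 placed, a ratio of 1.51. Chromosome 2 thus combined few isolated peaks per length with the highest ratio, and chromosome 19 many with the lowest. With the density of each 1 Mb window the ratios lay closer together, from 1.06 on chromosome 18 to 1.87 on chromosome 17, with a median of 1.34. Chromosome 2 then had a ratio of 1.84, chromosome 3 had 1.76 and chromosome 14 had 1.08.

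On chromosome 14 nearly all isolated peaks lay beyond 44 Mb, where the list thins out. After that position 310 of 4298 peaks were isolated, or 7.21%. Before it 12 of 5331 peaks were, or 0.225%. The sparse side had 67.9 peaks per Mb and 1.14 times the isolated peaks of uniform placement at that density. On the dense side, with 213 peaks per Mb, placement gave 0.613 isolated peaks, fewer than the 12 observed. Of these 12, 10 lay within 5 Mb of the first peak of the chromosome, among 739 peaks. The values for isolated peaks before 44 Mb thus come mostly from the edge of the list. The median isolated peak was 158 bp wide after 44 Mb and 162.5 bp before it, whereas other peaks had medians of 162 bp and 216 bp on these sides.

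**Figure D2:**
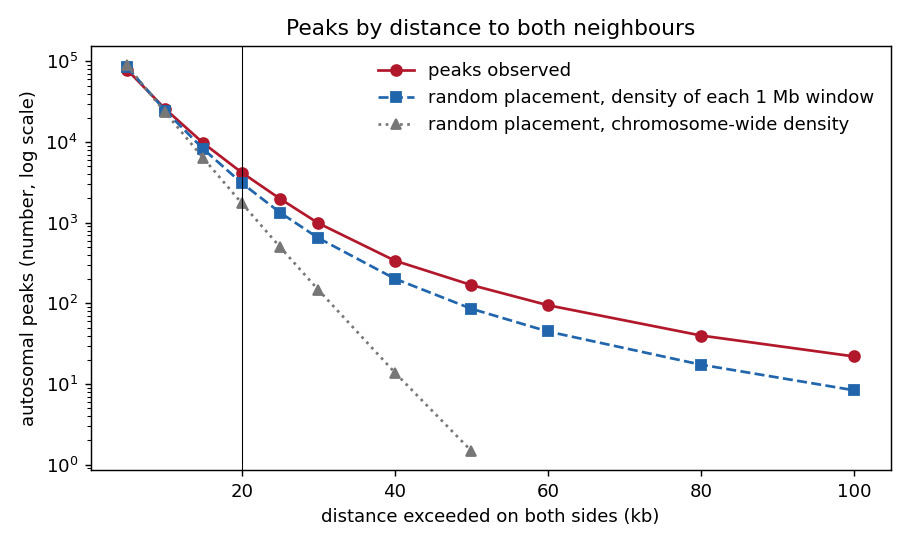
Number of autosomal peaks (log scale) whose distance to both neighbours exceeded the value on the horizontal axis in kb, as observed (red), under random placement at 1 Mb window density (blue) and at chromosome-wide density (grey, shown where at least 1). The vertical line marks 20 kb, where 4191 peaks were observed against 3107 and 1749 placed, and the observed curve lies above both from 10 kb on.

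Observed peaks were fewer than placed ones at 5 kb and more at 10 kb and beyond. More than 5 kb of free sequence on both sides was found for 79258 peaks, 0.883 times the number placed at chromosome-wide density. At 10 kb the ratio was 1.10, with 25764 peaks observed. At 30 kb there were 988 peaks, 6.70 times the chromosome-wide placement and 1.53 times the placement within 1 Mb windows. The ratio to the chromosome-wide number climbs steeply because that number nears 0, so the windows are the more useful scale at long distances. At 50 kb there were 169 observed, against 85.9 placed within windows, and at 100 kb there were 22 against 8.38. The ratio to placement within windows thus rose with distance, while the numbers behind it became small.

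Gaps on the 2 sides of a peak went together. Of all autosomal peaks with a neighbour on both sides, 7.55% had more than 20 kb to the previous one. Among peaks with more than 20 kb to the next peak this share was 15.4%, and among those with at most 20 kb to the next it was 6.91%. Uniform placement at a constant density would leave the 2 sides almost independent. These shares, however, pool autosomes from 88.0 peaks per Mb on chromosome 19 to 177 on chromosome 2. How much of the difference in shares follows from varying peak density was not tested. Another isolated peak was the direct neighbour of 1598 isolated peaks (38.1%). The rule itself favours such neighbours, since any peak beside an isolated peak already has more than 20 kb on the facing side. No share of isolated neighbours was computed under random placement. Whether the 38.1% exceeds what the rule and the peak density give was not tested.

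Most isolated peaks were only moderately far from their neighbours. The smaller of the 2 gaps had a median of 24.6 kb, and 52.6% of members had a smaller gap of at most 25 kb. The larger gap had a median of 36.2 kb, and both gaps together a median of 61.7 kb. Gaps several times longer than the limit were thus uncommon. A gap over 50 kb on at least 1 side was found for 1036 members (24.7%), and on both sides for 169 (4.03%). Just inside the limit lay a peak on chromosome 1 from 38658722 to 38658876 (hg19, as all positions here) and one on chromosome 21 from 21147152 to 21147507, each with a smaller gap of 20003 bp. Just outside lay peaks on chromosome 19 from 7308336 to 7308506 and from 8160574 to 8160728, each with a smaller gap of exactly 20000 bp.

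The 10 most isolated peaks lay on 5 autosomes, and 5 of the 10 were on chromosome 9, starting between 39561090 and 46329342. The one with the largest smaller gap was on chromosome 5 from 69343700 to 69343892, with 482.9 kb free before it and 261.3 kb after it, in a 1 Mb window of 10 peaks. A peak on chromosome 1 from 13187444 to 13187699 had 223.9 kb before and 615.7 kb after it. On chromosome 9, neighbouring peaks from 41019852 to 41020006 and from 41226482 to 41226635 shared a gap of 206.5 kb and lay in a window of 11 peaks. The others on chromosome 9 started at 39561090, 44431826 and 46329342. The remaining ones started at 74884102 on chromosome 7, at 144302789 on chromosome 1 and at 142702128 on chromosome 8. All of these 10 were listed on 1 line, and their widths ran from 142 to 256 bp. Whether reads could be placed in these long gaps was not tested.

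**Figure D3:**
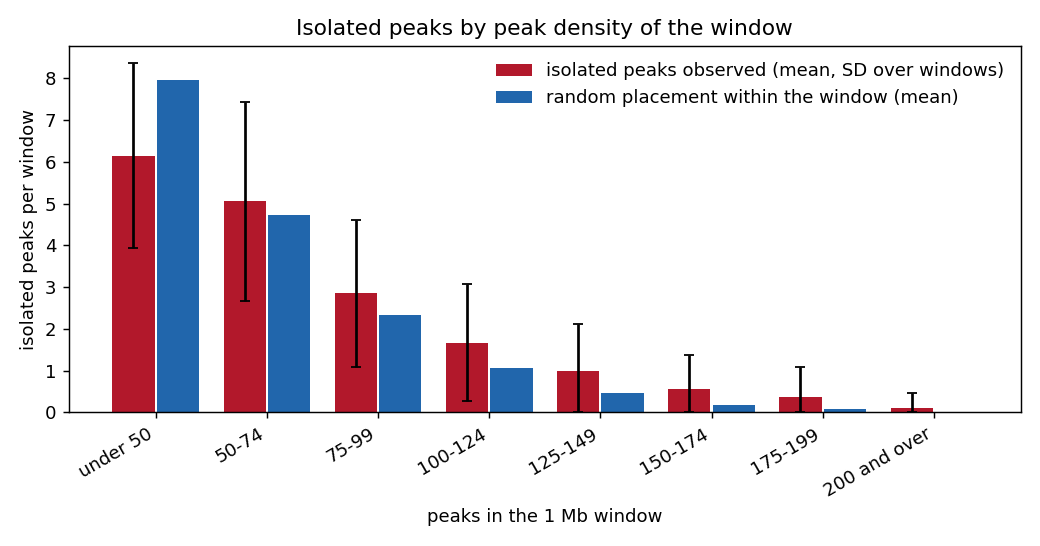
Mean number of isolated peaks per 1 Mb window (red, bars with SD over windows, lower end stopped at 0) and mean number under random placement within the same windows (blue), by the number of peaks in the window. Isolated peaks fell from a mean of 6.15 in windows with under 50 peaks to 0.117 in windows with 200 or more, and the placed mean lay above the observed one only in the sparsest class.

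Isolated peaks sat mainly in sparsely covered windows, which follows in part from the rule. Windows of 1 Mb searched over their whole length numbered 2644, with a median of 131 peaks, and 61.8% of them held at least 1 isolated peak. Of the isolated peaks, 4045 started in these windows, and the following values are for them. The median isolated peak lay in a window of 98 peaks (quartiles 74 and 123), against 145 peaks (118 and 176) for other peaks. Windows under the median count held 80.7% of these isolated peaks and 36.1% of the other peaks in such fully searched windows. The share of isolated peaks fell steadily with the density of the window. In the 48 windows with under 50 peaks, 17.2% of peaks were isolated, and the number was 0.771 times that placed within the windows. In the 606 windows with 100 to 124 peaks, 1.48% were isolated, at 1.57 times the placed number. In the 222 windows with 200 or more peaks there were 26 isolated peaks, or 0.0520%, at 6.39 times the placed number. That ratio stands on a small placed number, with a mean of 0.0183 per window. Dense windows thus kept a few open stretches that random placement of their peaks would rarely leave.

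Some windows gathered many isolated peaks. Fully searched windows with 5 or more numbered 226 and held 1394 members, or 33.3% of all 4191. The window with most was on chromosome 4 from 7000001 to 8000000, where 15 of 56 peaks were isolated. Chromosome 14 from 52000001 to 53000000 had 14 of 51, chromosome 1 from 34000001 to 35000000 had 12 of 57 and chromosome 19 from 1000001 to 2000000 had 11 of 33. A further 6 windows had 10 each, of which 2 were on chromosome 14, from 99000001 and from 105000001, and the others on chromosomes 1, 7, 9 and 12. All these windows with 10 or more were sparse, with 33 to 71 peaks. Random placement gave a mean of 7.97 isolated peaks in windows with under 50 peaks, where 6.15 were observed. In windows with 50 to 74 peaks it gave 4.73, where 5.05 were observed. No placed number is given here for single windows. The longest series of successive isolated peaks also fell in the chromosome 4 window, with 7 peaks from 7551345 to 7776684 in 333.3 kb between the nearest other peaks. There were 3 series of 6. One spanned 134689825 to 135060267 on chromosome 10, another 51977341 to 52142418 on chromosome 14, reaching into the window named above. The last, on chromosome 9 between 65479911 and 66262708, bordered a peak-free stretch over 500 kb. Series of 5 numbered 11, series of 4 numbered 44, series of 3 numbered 118 and pairs numbered 494. The remaining 2593 isolated peaks had peaks that were not isolated as neighbours on both sides.

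Isolated peaks were a larger share of the peaks towards the ends of the autosomes. Isolation depends on peak density, and no number under random placement was computed for the ends. Whether the density of peaks there gives these shares was not tested. Within 5 Mb of the first or last peak of a chromosome, 693 of 21436 peaks were isolated, or 3.23% (Wilson interval 3.0% to 3.48%). In the rest of the autosomes, at least 5 Mb from the ends and from long peak-free stretches, 3126 of 316002 were, or 0.989% (0.955% to 1.02%). Put the other way, 16.5% of isolated peaks and 5.82% of other peaks lay within 5 Mb of an end. The pattern was found on most chromosomes. The share in the last 5 Mb was above that of the chromosome without both 5 Mb ends on 19 of 22 autosomes, and the share in the first 5 Mb on 18 of 22. The highest end shares were 12.9% at the start of chromosome 1 (30 of 233 peaks), 12.8% at the end of chromosome 9 (34 of 265) and 10.4% at the end of chromosome 14 (30 of 288). Chromosome 6 had 1 isolated peak of 894 in its first 5 Mb. The first 5 Mb are not telomeric on acrocentric chromosomes, whose lists begin beyond the short arm.

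Near the long peak-free stretches, some of which span centromeres, the share was smaller than at the ends. It was not set against random placement either. Within 5 Mb of a stretch over 500 kb, apart from chromosome ends, 372 of 23016 peaks were isolated, or 1.62% (1.46% to 1.79%). Of all members, 11 directly bordered such a stretch, 5 of them on chromosome 9 and 3 on chromosome 1.

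**Figure D4:**
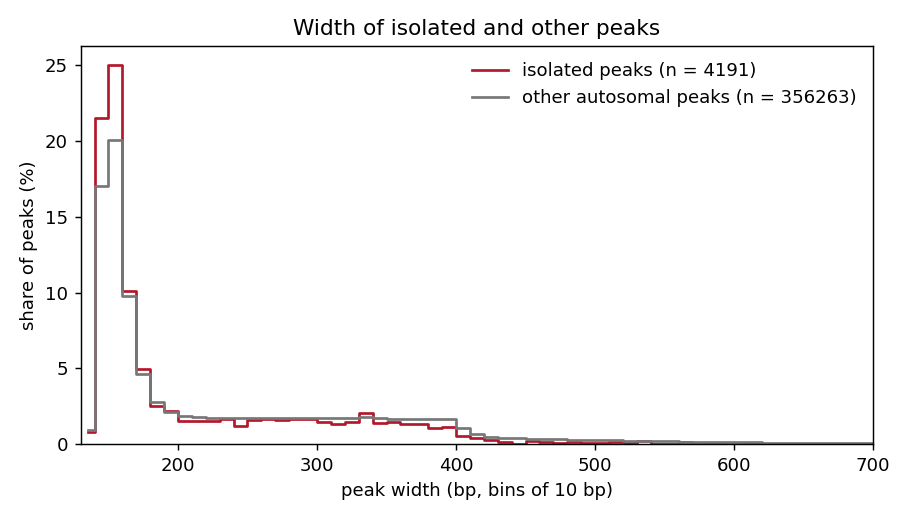
Share of peaks in bins of 10 bp of peak width for isolated peaks (red, n = 4191) and other autosomal peaks (grey, n = 356263). Isolated peaks have a higher share from 140 to below 170 bp and a lower total share at 400 bp or more.

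Isolated peaks were narrower than the rest of the list. Their median width was 161 bp (95% interval 160 to 162 bp) with quartiles of 150 and 253 bp, against a median of 173 bp (173 to 174 bp) and quartiles of 153 and 300 bp for other autosomal peaks. The narrowest isolated peak was 138 bp wide and the narrowest other peak 136 bp. Both medians thus lay close to the smallest width in the list, which leaves little room for medians to differ downwards. The mean was 209 ± 89.1 bp for isolated peaks and 235 ± 120 bp for the others (SD over peaks). Widths from 140 to below 170 bp were found for 56.6% of isolated peaks (55.1% to 58.1%), against 46.9% of others and 47% of all autosomal peaks. Widths from 200 to below 400 bp made up 29.7% of isolated peaks and 34.6% of others. Widths of 400 bp or more were found for 134 isolated peaks, or 3.20% (2.71% to 3.77%), and for 8.05% of others, with 7.99% over all autosomal peaks. Widths of 600 bp or more were found for 14 isolated peaks, or 0.334% (0.199% to 0.560%), and for 1.42% of others. None of the 4191 isolated peaks reached 1000 bp, which allows a share of up to 0.0716% by 3 counts of the total, or 0.0916% by the Wilson interval, and 0.102% of other peaks did. The isolated median was below that of other peaks on 21 of the 22 autosomes. On chromosome 11 the isolated median was 173 bp and the other 170 bp.

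Isolated peaks were also compared with the other peaks of their own region, where the size of the difference depended on the measure. In 1691 windows of 1 Mb that held both kinds, the median width of isolated minus other peaks had a median over windows of -0.5 bp (95% interval -3 to 2 bp), below 0 in 850 windows and above 0 in 827. In 5 Mb windows this median was -5.5 bp. Counted by member, 54.6% of isolated peaks were narrower than the median other peak of their window (53.1% to 56.1%) and 44.7% were wider. The mean width was 209 bp for the members and 223 bp for the other peaks of their windows, averaged over members, so part of the difference in means was also present within windows. Other peaks of the members' windows, averaged over members, were 400 bp or wider in 5.99% of cases, against 3.20% of the members themselves. For widths of 140 to below 170 bp these shares were 56.7% among members and 51.7% among the other peaks of their windows. The 6528 peaks that directly flanked an isolated peak without being isolated had a median of 162 bp, and 4.29% of them reached 400 bp. Values of the flanking peaks thus lay between those of the isolated peaks and those of the other autosomal peaks.

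The 5 widest isolated peaks measured 725 to 912 bp. The widest, of 912 bp on chromosome 1 from 121478311 to 121479222, bordered the longest peak-free stretch of that chromosome, 21072 kb long. A peak of 776 bp on chromosome 17 from 45995502 to 45996277 lay in a window of 203 peaks, with 20.4 kb before and 21.0 kb after it. Peaks of 760 bp on chromosome 7 from 3061614, of 749 bp on chromosome 19 from 1021309 and of 725 bp on chromosome 5 from 139240456 made up the rest. The chromosome 19 peak had 44.3 kb before and 129.7 kb after it, in a window of 33 peaks. The widest isolated peaks therefore came from dense and sparse windows alike.

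**Figure D5:**
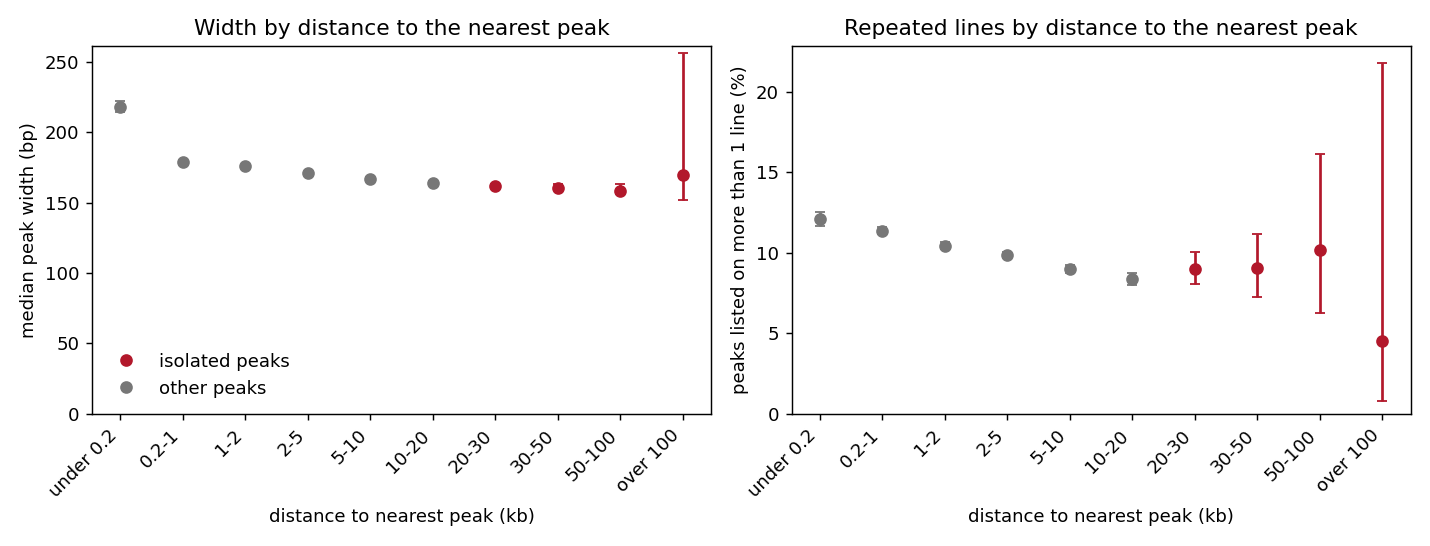
Left, median peak width in bp, and right, share of peaks listed on more than 1 line in percent, by distance to the nearest peak in kb for autosomal peaks (red for isolated, grey for others, bars are 95% intervals). Width declines from 218 bp under 0.2 kb to 158 bp at 50 to 100 kb, and the share listed more than once declines to 8.38% at 10 to 20 kb and lies at 8.99% to 10.2% at 20 to 100 kb.

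Isolated peaks lay at the narrow end of a gradient of width with distance that ran through the other peaks. The median width was 218 bp for peaks under 0.2 kb from the nearest one, 171 bp at 2 to 5 kb and 164 bp at 10 to 20 kb. It was 162 bp at 20 to 30 kb (161 to 163 bp), 160 bp at 30 to 50 kb (159 to 163 bp) and 158 bp at 50 to 100 kb (156 to 163 bp). The 22 peaks beyond 100 kb had a median of 169.5 bp with an interval of 152 to 256 bp, too wide to place them. The intervals of all isolated classes overlapped, so no further decline was shown among them. The share of peaks of 400 bp or more was 14.2% under 0.2 kb, 4.83% at 10 to 20 kb and 3.43% at 20 to 30 kb. By distance to the farther neighbour, isolated or not, this share was 3.90% at 50 to 100 kb. It was higher in the 598 peaks over 100 kb, at 7.36% (5.53% to 9.73%). Peaks with more than 20 kb on 1 side only, 46033 in number, had a median of 165 bp and 4.92% at 400 bp or more. They lay between the isolated peaks and the 310186 peaks with a neighbour within 20 kb on both sides, whose median was 176 bp and share 8.52%.

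Some intervals are repeated in the deposited list, and no label or header says what a repeat stands for. Of the isolated peaks, 378 were listed on more than 1 line, or 9.02% (8.19% to 9.92%), against 10.3% of other peaks and 10.3% of all autosomal peaks. Of these, 322 were on 2 lines and 56, or 1.34% (1.03% to 1.73%), on 3 or more, against 1.22% of other peaks on 3 or more. Other peaks in the members' own 1 Mb windows, averaged over members, were repeated in 10.4% of cases. Repeated isolated peaks had a median width of 162 bp and those listed once 161 bp, whereas among other peaks the medians were 179 and 173 bp. By distance to the nearest peak the repeated share declined from 12.1% under 0.2 kb to 8.38% at 10 to 20 kb and was 8.99% at 20 to 30 kb (8.05% to 10.0%), so the decline was not seen to go on among isolated peaks.

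Repetition varied widely by chromosome, and on most autosomes it was less frequent among isolated peaks than among others. On chromosome 19, 24.0% of isolated peaks and 24.8% of others were repeated, and on chromosome 17 the shares were 21.3% and 17.5%. On chromosome 13 they were 2.86% and 6.41%, and on chromosome 4 they were 3.50% and 6.59%. Chromosome 18 had 3.26% and 9.78%, and chromosome 22 had 6.38% and 14.6%. The isolated share was the lower one on each autosome except chromosomes 3, 16 and 17. Of the 9 isolated peaks on 4 or more lines, 4 were on chromosome 19. The most repeated, on 6 lines, was a 155 bp peak on chromosome 19 from 35632919 to 35633073, with 29.4 kb before and 28.3 kb after it. Peaks on 5 lines were also on chromosome 19, from 54256914 to 54257078 and from 55290358 to 55290666. The other 6 were spread over 6 chromosomes. They started on chromosome 19 at 7696413, on chromosome 17 at 22027808, on chromosome 15 at 25435615, on chromosome 14 at 101493466, on chromosome 12 at 52680026 and on chromosome 7 at 76637463. Near chromosome ends 12.6% of isolated and 13.0% of other peaks were repeated, against 8.25% and 10.0% away from ends and long stretches.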

How the data were processed

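The deposited list gives the start and end of each peak in bases on hg19, with no score, so no peak could be ranked by strength. Per the file header, the authors trimmed reads, removed duplicates and ran MACS for LSD2 against input at a p-value cutoff of 1e-05 and an enrichment factor of 32, with local biases detected, reads and fragments taken as 120 bp long and a genome of 2700 Mb. The submitters' processing notes name BWA and hg19. The p-value cutoff limits how small a signal counts as a peak, so a gap between peaks is sequence without a call at an unknown read depth.

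Identical lines were counted once. Distances were bases between the end of one interval and the start of the next, and the first and last interval of a chromosome could not be isolated. The searched sequence ran from the first to the last peak, less 24 autosomal peak-free stretches over 500 kb. Numbers under random placement came from the closed form for non-overlapping intervals of the observed total width placed uniformly in a chromosome, or in a 1 Mb or 5 Mb window, with nothing drawn at random. The rule and its formula were tested on simulated data. Shares have Wilson 95% intervals and medians have order-statistic 95% intervals, which cover counting only and treat peaks as independent. No p-value was computed, since each group has 1 library and the peak positions chose the isolated set. Regions named by position were the 10 isolated peaks with the largest smaller gap, the 5 widest, those listed most often, the 1 Mb windows with most isolated peaks and the peaks next to the 20000 bp limit. The members, the lists, the 44 Mb division of chromosome 14 and the comparisons were chosen with earlier results of these data known. Alternatives are in the closing section. No gene or sequence was read at the peaks, since the reference tables used here are on GRCh38.p14 and coordinates were not converted. Python 3.11.15, numpy 2.4.6, pandas 2.3.3, scipy 1.17.1 and matplotlib 3.10.9 were used.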

Additional observations from a re-analysis of the deposited data

How the results depend on the processing

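Of 42 alternative values for the main results, 32 kept within their limits. For numbers of peaks and ratios the limit was a factor of 1.5. Ratios of single autosomes were less stable, and 82 of 197 alternative values moved beyond the limit. These included 21 autosomes with a distance over 30 kb, 19 with the density of each 1 Mb window and 16 with a distance over 15 kb. The number of isolated peaks was 9671 over 15 kb, 988 over 30 kb and 13962 among peaks at least as wide as the median peak, a set with fewer peaks and so wider gaps. The ratio to chromosome-wide placement was 1.54 over 15 kb, 6.70 over 30 kb, 3.76 with every line counted, where placement is denser by construction, and 1.35 with the density of each 1 Mb window. No alternative took the ratio of any of the 22 autosomes below 1. The width difference within windows was -5.5 bp in 5 Mb windows, against -0.5 bp, and the cause was not tested. Median width under 0.2 kb minus that at 20 to 30 kb was 114 bp by the farther neighbour, against 56.0 bp by the nearest. Fully searched windows of 5 Mb under the median held 74.6% of the members in such windows, against 80.7% with 1 Mb. The median width of isolated peaks was 160 to 162 bp and the repeated share 8.74% to 9.11% in the alternatives run. Counting every line gives no repeated share, since a repeated interval then touches its copy. No paired analysis was possible because there is 1 library of each kind. Depth, which is unknown, limits all gaps, since a stretch without calls can hold LSD2 at too few reads to pass the cutoff.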

Other observations

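The same rule on the sex chromosomes, which are not among the members, gave isolated peaks close to the number of uniform placement. Chromosome X had 790 isolated peaks of 9736, or 8.11%, against 725.9 placed at its density of 64.0 peaks per Mb, a ratio of 1.09. Placement within its 1 Mb windows gave 769.8, a ratio of 1.03, which is below the lowest autosomal ratio of 1.06. Chromosome Y had 106 isolated peaks of 673, or 15.8%, against 119.8 placed, a ratio of 0.885. On X the median width was 159 bp for isolated peaks and 161 bp for other peaks, and 2.91% of the isolated ones were listed more than once, against 6.28% of the others. Chromosome 19, the autosome nearest to X in density with 88.0 peaks per Mb, had the lowest autosomal ratio to chromosome-wide placement. Over the 22 autosomes the ratio to chromosome-wide placement went with peak density (Spearman's rho = 0.67), and both use the same counts of peaks.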
